A study of Mus musculus with 48 samples.

Results

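Genes for 8 paired inhibitory and activating receptors of myeloid cells, Trem1, Trem2, Pilra, Lilr4b, Cd72, Siglece, Siglech and Siglec1, were followed across 6 phagocyte populations of mouse ear skin treated with imiquimod. They were selected by name, as the probe sets whose only gene symbol was a listed member, and where a gene had several the probe set with the highest mean over the 48 arrays was to be taken. All 8 listed genes were found, with 1 probe set each, among 15591 genes that passed a filter on low values. All 8 passed it. Their mean log2 values over the 48 arrays, the measure named in that choice, ran between 4.80 for Siglech and 9.44 for Lilr4b and are given as a description.

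Paired receptors are families of closely related surface proteins in which some members carry cytoplasmic tyrosine motifs (ITIM) that recruit the phosphatases SHP-1 and SHP-2 and restrain the cell, and others lack such motifs and instead associate with the adaptor DAP12, encoded by Tyrobp, whose ITAM recruits the kinase Syk. Among the activating members, Trem1 amplifies inflammatory responses of monocytes and neutrophils, Trem2 senses lipids and lipoproteins on macrophages and microglia, and Siglech is a DAP12-coupled lectin best known on plasmacytoid dendritic cells and microglia. Among the inhibitory members, Pilra is the ITIM-bearing counterpart of the activating Pilrb proteins, Cd72 is a C-type lectin-like receptor of B cells that binds semaphorin 4D, and Siglece recognises sialic acid on self glycans. Lilr4b, also called gp49A, lacks the ITIMs of its close neighbour Lilrb4a (gp49B). Siglec1, or sialoadhesin, is a macrophage adhesion receptor without a signalling motif and a known interferon-induced gene.

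Imiquimod, a TLR7 agonist that causes psoriasis-like skin inflammation, was given to mice of 8 to 11 weeks as a 5% cream (Aldara) on the ears, 7 mg of imiquimod per ear side each day in a course of 14 days. Cells were sorted at day 5 or day 11 of treatment or from untreated skin, and the 48 arrays form 16 groups of 3. Dermal monocytes (CD64low, CCR2+, Ly-6Chi, MHCIIlow) were profiled at day 5 and untreated, and dermal macrophages (CD64hi, Ly-6Clow) with high MHC class II (MHCIIhi) at day 11 and untreated. MHCIIlow macrophages, monocyte-derived dendritic cells (moDC, Ly-6Chigh and MHCII+), CD11b DC (CD64-, CD24-) and epidermal Langerhans cells (CD24+, MHCII+) were profiled in all 3 conditions. The labels give no strain, do not say which ears were digested warm or cold with dispase, and leave unsaid whether replicate arrays stand for different animals. The p-values therefore measure only the spread among the arrays given, which may be technical.

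The median log2 value of an array lay between 4.10 and 4.37, arrays of a group correlated at r of 0.926 to 0.988, and 43 of the 48 arrays were closest to their own group. The labelled populations were set against their markers. Cd207 (langerin) averaged 11.22 in untreated Langerhans cells and at most 5.44 in untreated dermal groups, C1qa averaged 11.52 in untreated MHCIIlow macrophages, and Plac8 averaged 11.68 in untreated monocytes. Epithelial RNA was present in the Langerhans cell arrays, and not in them alone. The mean level of 10 keratinocyte markers was 10.89 in untreated, 8.62 in day 5 and 8.90 in day 11 Langerhans cells. It was 8.60 in day 11 MHCIIhi macrophages, 8.33 in untreated moDC and lowest, at 5.61, in day 5 CD11b DC. The mean level of 6 fibroblast markers was 8.32 in untreated monocytes (6.99 to 10.16 by array). In moDC it was 8.36 untreated and 6.89 at day 5. Sample titles carry a letter that differs with the condition, B for untreated dermal cells, F for all day 5 cells and for untreated Langerhans cells, and G for day 11. For dermal cells the letter and the treatment cannot be told apart. In sorted cells pooled for 1 array, fewer cells of a type and less RNA per cell cannot be told apart.

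The members lie at 6 chromosomes in GRCm38.p6. Trem1 (chr17:48232713-48246927) and Trem2 (chr17:48346401-48352276) are neighbours, Lilr4b lies at chr10:51480612-51486329, Cd72 at chr4:43447724-43455102, Siglece at chr7:43648882-43672044, Siglech at chr7:55768154-55779448, Siglec1 at chr2:131067801-131086778 and Pilra at chr5:137821952-137836278. The sequence upstream of Pilra is near-identical to those upstream of its activating counterparts Pilrb1 and Pilrb2, which lie beside it at separate positions, and these 3 upstream runs are shown because all 3 genes rose in Langerhans cells under imiquimod. Each is 196 bases from RefSeq (GRCm38.p6, minus strand, 5′ to 3′), and capitals mark the 4 positions at which the 3 runs are not all alike. The Pilra run (chr5:137836279-137836474) ends at the base before its annotated start, and the Pilrb1 run (chr5:137858104-137858299) and Pilrb2 run (chr5:137871813-137872008) have their last base 55 bases before theirs.
Pilra: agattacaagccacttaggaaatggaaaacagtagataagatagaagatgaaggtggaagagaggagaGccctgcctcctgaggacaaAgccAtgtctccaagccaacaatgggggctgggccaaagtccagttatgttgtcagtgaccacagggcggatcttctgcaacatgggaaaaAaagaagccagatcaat
Pilrb1: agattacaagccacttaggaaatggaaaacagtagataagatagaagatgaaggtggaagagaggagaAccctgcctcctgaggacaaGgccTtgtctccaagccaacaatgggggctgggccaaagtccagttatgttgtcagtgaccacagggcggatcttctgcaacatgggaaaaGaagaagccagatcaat
Pilrb2: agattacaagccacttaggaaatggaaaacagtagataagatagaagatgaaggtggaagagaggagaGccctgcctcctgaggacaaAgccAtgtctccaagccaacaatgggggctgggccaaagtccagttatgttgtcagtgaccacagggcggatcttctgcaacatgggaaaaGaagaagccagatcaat

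The Pilrb2 run differs from the Pilra run at 1 position and the Pilrb1 run at 4. Over the whole windows of 300 bases (250 before to 50 after each start), Pilra and Pilrb1 matched at 242 of 246 aligned bases, Pilra and Pilrb2 at 244 of 246, and Pilrb1 and Pilrb2 at 292 of 300. An interferon-response-type motif, made of GAAA, 2 bases of any kind and GAAA and read on both strands, occurs once in each of the 3 runs, at bases 19 to 28. It was found in 3.4% of all 32851 windows of that length, and in none of the other 6 member promoters that could be searched (Trem1, Trem2, Lilr4b, Cd72, Siglece and Siglech). A PU.1-type core, AGGAAGT on both strands, was found in the windows of Trem1, Cd72, Pilra, Pilrb1 and Pilrb2, and in 9.4% of all windows. A match is a description of these letters only. How far probes for these near-identical genes, or for Lilr4b and Lilrb4a, pick up each other's RNA was not tested, so their separate values are uncertain.

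In untreated skin the members set some populations apart, while for every member some populations of neighbouring level overlapped. Langerhans cells had the lowest Lilr4b, Pilra and Trem2 and the highest Cd72, monocytes had the highest Trem1, and both macrophage populations had the highest Trem2, Siglech and Siglec1 (the plot of untreated levels shows every array). Against CD11b DC, Langerhans cells were higher for 1 and lower for 5 of the 8 members, where 23.1% of all genes tested were called in either direction. Against MHCIIlow macrophages they were higher for 1 and lower for 6, where 26.9% of all genes were called. Untreated Langerhans and dermal arrays carry different title letters, so for these comparisons letter and population cannot be told apart.

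**Figure D1:**
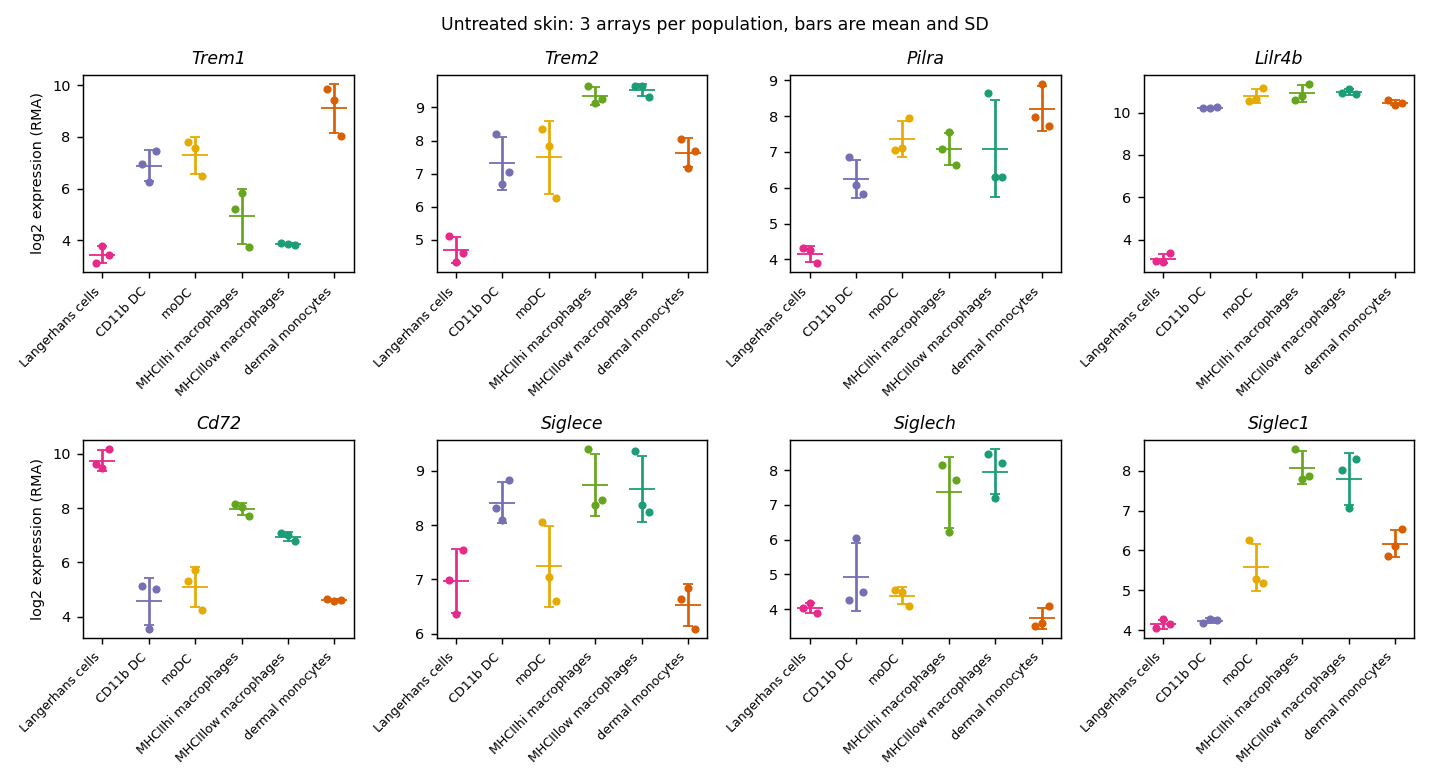
Log2 expression (RMA, vertical axis) of the 8 receptor genes in the 6 populations of untreated skin; points are the 3 arrays of a population, and horizontal and vertical bars are the mean and SD. Cd72 is highest in Langerhans cells (mean 9.75), where Lilr4b is lowest (mean 3.10), and Siglech stands out in MHCIIlow (7.96) and MHCIIhi macrophages (7.36).

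Trem1 averaged 9.11 ± 0.96 (SD, n = 3) in untreated monocytes, 7.29 ± 0.71 in moDC, 6.88 ± 0.60 in CD11b DC, 4.94 ± 1.06 in MHCIIhi macrophages, 3.86 ± 0.05 in MHCIIlow macrophages and 3.44 ± 0.33 in Langerhans cells. The moDC and CD11b DC arrays overlapped, as did those of the macrophage populations. Trem1 was lower in MHCIIlow macrophages than in monocytes, with a log2 difference of -5.25 (SE 0.50, adjusted p = 2.08e-10). In that comparison 5 members were higher in the macrophages and 1, Trem1, was lower, where 18.7% of all genes were called. In moDC against monocytes the change was -1.82 (SE 0.50, adjusted p = 0.0289). Trem1 was the 1 member called there, where 3.43% of all genes were called, and the call was lost without untreated monocyte replicate 1 or 2 or without untreated moDC replicate 3 (adjusted p of 0.0853 to 0.181).

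Trem2 was highest in the macrophages. It averaged 9.54 ± 0.18 in MHCIIlow and 9.35 ± 0.27 in MHCIIhi macrophages, and 7.63 ± 0.44 in monocytes, 7.49 ± 1.09 in moDC and 7.31 ± 0.80 in CD11b DC (SD, n = 3 each), with 4.69 ± 0.40 in Langerhans cells. The monocyte, moDC and CD11b DC values overlapped. Trem2 was higher in MHCIIlow macrophages than in monocytes by 1.91 (adjusted p = 2.49e-04), a call lost when untreated monocyte replicates 2 and 3, which lay farthest from their group, were both left out (adjusted p = 0.0716). Langerhans cells were lower than MHCIIlow macrophages, with a difference of -4.85 (SE 0.38, adjusted p = 3.61e-13).

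Siglech, the lectin usually sought on plasmacytoid dendritic cells, had 8.45, 7.21 and 8.21 on the untreated MHCIIlow macrophage arrays, against 3.53, 3.61 and 4.09 on the untreated monocyte arrays. The groups did not overlap, and the log2 difference was 4.22 (SE 0.37, adjusted p = 3.29e-11). Untreated MHCIIhi macrophages had 8.16, 6.22 and 7.71. Outside the macrophages neighbouring populations overlapped, and CD11b DC averaged 4.93, moDC 4.38, Langerhans cells 4.03 and monocytes 3.74. Of the 8 measured plasmacytoid dendritic cell markers, 2 were higher and 1 was lower in untreated MHCIIlow macrophages than in monocytes. The higher ones were Tcf4, a transcription factor, with a difference of 1.54 (adjusted p = 1.15e-04), and Cox6a2, a mitochondrial subunit, with 1.21 (adjusted p = 8.09e-04), and both had their highest untreated means in the macrophage populations, as Siglech did. Bcl11a, on the same list, went the other way. It had its lowest untreated means in the macrophages, 4.84 in MHCIIlow and 5.36 in MHCIIhi cells, against 6.82 in monocytes. Spib averaged 3.59 and Ccr9 was lower still in untreated MHCIIlow macrophages, both under the filter threshold of 3.77.

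Siglec1 likewise marked the macrophages, at 8.07 ± 0.42 in MHCIIhi and 7.79 ± 0.64 in MHCIIlow cells, with 6.17 ± 0.34 in monocytes, 5.57 ± 0.59 in moDC, 4.24 ± 0.05 in CD11b DC and 4.15 ± 0.11 in Langerhans cells (SD, n = 3 each). The last 2 populations overlapped. Siglec1 was lower in CD11b DC than in moDC, with a difference of -1.34 (SE 0.29, adjusted p = 0.00508) and was the 1 member called in that comparison, where 3.57% of all genes were called. The call was lost without untreated moDC replicate 1 (adjusted p = 0.0638). No member was called between untreated MHCIIhi and MHCIIlow macrophages by limma, where 0.898% of all genes were called. There 2 of the 8, Trem1 and Cd72, had an unadjusted p under 0.05.

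Siglece was less confined. It averaged 8.74 in MHCIIhi macrophages, 8.66 in MHCIIlow macrophages, 8.41 in CD11b DC, 7.24 in moDC, 6.97 in Langerhans cells and 6.52 in monocytes, and the last 3 populations overlapped. It was lower in Langerhans cells than in CD11b DC, with a difference of -1.45 (adjusted p = 0.00723), which was lost without untreated CD11b DC replicate 3 (adjusted p = 0.0507) or untreated Langerhans cell replicate 2 (adjusted p = 0.0694). Pilra averaged 8.20 in monocytes, 7.37 in moDC, 7.08 in both macrophage populations and 6.25 in CD11b DC, each overlapping the next, and 4.15 in Langerhans cells, which stood apart.

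Lilr4b had 2.99, 2.96 and 3.36 on the untreated Langerhans cell arrays, against 10.21, 10.22 and 10.29 on the untreated CD11b DC arrays. All 3 Langerhans values lie under the filter threshold, and the log2 difference was -7.14 (SE 0.26, adjusted p = 4.65e-22). The other untreated dermal populations averaged between 10.46 and 10.97. Cd72 went the other way, with 9.61, 9.46 and 10.18 in untreated Langerhans cells, against 5.12, 3.56 and 5.00 in untreated CD11b DC. The difference was 5.19 (SE 0.41), and 2.80 (SE 0.41) against MHCIIlow macrophages, which averaged 6.95.

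Langerhans and dermal arrays of the same day share a title letter under treatment, and their levels are given without a test. At day 5 the Langerhans cell mean minus that of CD11b DC was -2.09 for Lilr4b, -1.08 for Pilra, -1.31 for Trem2 and 0.42 for Cd72. At day 11 the differences were -4.16 for Lilr4b, -1.95 for Pilra, -2.32 for Trem2 and 1.94 for Cd72. For Trem1 they were -2.71 at day 5 and -1.97 at day 11, and for Siglece -0.42 and 0.39. Of the 6 members called between these untreated populations, the direction was that of the untreated comparison on both days for all but Siglece, which turned at day 11.

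The members called under imiquimod were not the same in every population. For dermal cells treatment and title letter cannot be told apart. Differing lists of calls are not a test of differing responses, which is given further below. At day 5, of 40 member and population pairs, 10 rose and 3 fell, and at day 11, of 40 pairs, 7 rose and 4 fell (limma, adjusted p under 0.05 over all genes). The counts by population at day 5 were 1 up and 1 down in monocytes (12.7% of all genes called), 3 up in moDC (11.3%), 2 up and 2 down in MHCIIlow macrophages (14.2%), 1 up in CD11b DC (7.98%) and 3 up in Langerhans cells (16.1%). At day 11 they were 1 up in moDC (8.42%), 1 up and 2 down in MHCIIlow macrophages (9.72%), 2 down in MHCIIhi macrophages (14.9%), 2 up in CD11b DC (10.3%) and 3 up in Langerhans cells (17.7%). With 8 members, a single call is a share close to these backgrounds, and the shares were not tested. The treatment contrasts of a population at day 5 and day 11 share their untreated arrays.

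**Figure D2:**
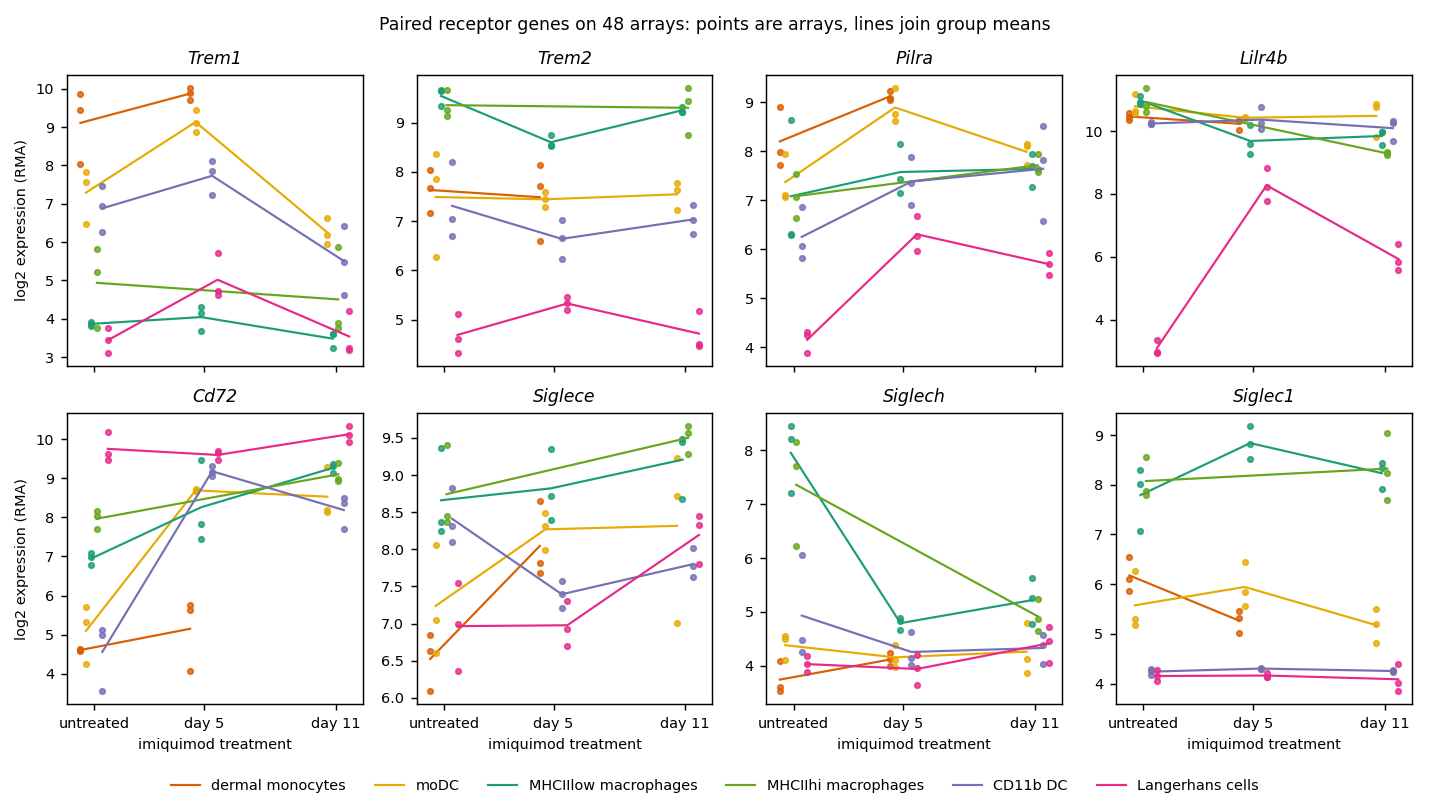
Log2 expression (RMA, vertical axis) of each receptor gene in untreated skin and at day 5 and day 11 of imiquimod (horizontal axis); points are arrays, lines join the group means, and colours are the 6 populations. Monocytes have no day 11 group and MHCIIhi macrophages no day 5 group; Lilr4b is higher in treated Langerhans cells (8.27 at day 5, 3.10 untreated) and Cd72 in CD11b DC (9.18 at day 5, 4.56 untreated).

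**Figure D3:**
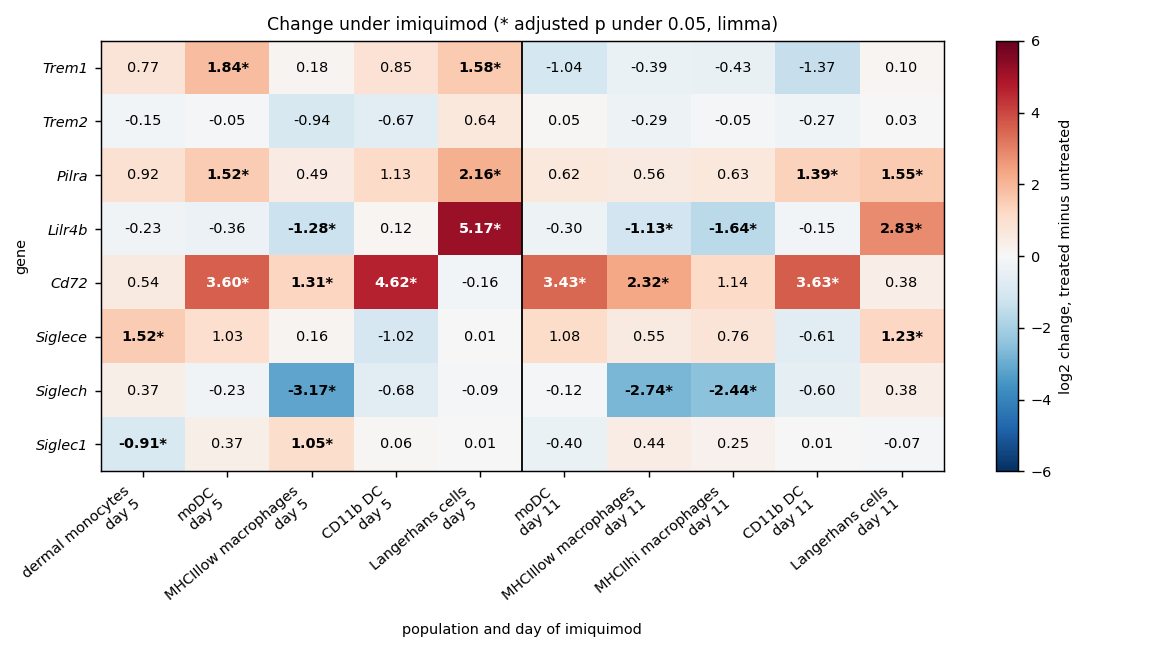
Log2 change of each receptor gene (rows), imiquimod minus untreated, in each population and day (columns, day 5 left of the line and day 11 right of it); an asterisk marks an adjusted p under 0.05 by limma. The largest values are Lilr4b in Langerhans cells at day 5 (5.17) and Cd72 in CD11b DC at day 5 (4.62), and no Trem2 value carries an asterisk.

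Lilr4b rose in Langerhans cells, where untreated arrays gave values under the filter threshold. It measured 8.21, 8.84 and 7.77 at day 5 and 5.58, 6.39 and 5.82 at day 11, and the untreated arrays had 2.99, 2.96 and 3.36. The 3 conditions did not overlap. The log2 change was 5.17 (SE 0.26, adjusted p = 1.38e-17) at day 5 and 2.83 (SE 0.26, adjusted p = 1.22e-10) at day 11, and the difference of day 11 from day 5 was -2.34 (adjusted p = 5.29e-07). Untreated and day 5 Langerhans cells share the title letter F. At day 5 the level was still under that of CD11b DC of the same letter, which ranged between 10.07 and 10.77.

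The inhibitory neighbour Lilrb4a moved with it in Langerhans cells. Lilrb4a measured 7.36, 7.72 and 6.69 at day 5 and 6.33, 6.62 and 5.80 at day 11, and 3.35, 3.85 and 3.48 untreated. Its change was 3.70 (adjusted p = 9.39e-15) at day 5 and 2.69 (adjusted p = 4.22e-11) at day 11. In the macrophages both genes fell. Lilr4b had 9.60, 9.26 and 10.19 in MHCIIlow macrophages at day 5, against 10.91, 11.12 and 10.88 untreated, a change of -1.28 (adjusted p = 6.26e-04). At day 11 its change was -1.13 in MHCIIlow (adjusted p = 0.00346) and -1.64 in MHCIIhi macrophages (adjusted p = 2.68e-05), and that of Lilrb4a was -0.97 and -1.16. In monocytes, moDC and CD11b DC no Lilr4b change was called, and the changes lay between -0.36 and 0.12.

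Markers of other myeloid cells moved in the same Langerhans cell arrays. All 4 measured monocyte markers rose at day 5 and 1 of 4 at day 11. Their mean level ranged over 5.85 to 6.65 at day 5 and 4.18 to 5.36 at day 11, and over 3.69 to 3.80 in untreated Langerhans cells. Of 9 macrophage markers, 5 rose and 1 fell at day 5 and 3 rose and 2 fell at day 11. Mrc1 averaged 7.15 at day 5 and 3.79 at day 11, and 3.44 untreated. C1qb averaged 7.81 at day 5 and 7.72 at day 11, and 5.41 untreated. Adgre1 was lower, at 8.23 at day 5 and 8.28 at day 11, and 8.96 untreated. Mertk averaged 3.64 at day 5 and 3.61 at day 11, under the filter threshold, as it did untreated at 3.65. Of 6 dendritic cell markers, 4 rose at each day. Of 4 Langerhans cell markers none was called at day 5 and 1, Epcam, rose at day 11 (0.63, adjusted p = 0.0201), and their mean level was 10.71 at day 5 and 10.83 at day 11, and 10.60 untreated. Within that list Cd207 averaged 10.69 at day 5 and 10.79 at day 11, and 11.22 untreated, and Mfge8 12.68 on both days and 11.87 untreated, none of these changes being called. The keratinocyte markers fell (8 of 10 at day 5, 6 of 10 at day 11). The mean level of 6 fibroblast markers was 6.24 at day 5 and 5.54 at day 11, and 4.99 untreated. The part of these changes in the rise of Lilr4b, Pilra and Trem1 was not tested.

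Pilra and both Pilrb genes rose together in Langerhans cells. Pilra measured 6.68, 6.28 and 5.96 at day 5, against 4.31, 4.25 and 3.89 untreated, a change of 2.16 (SE 0.44, adjusted p = 3.4e-04). At day 11 it measured 5.93, 5.47 and 5.69, a change of 1.55 (adjusted p = 0.0101). The activating partner Pilrb1 rose by 3.27 (adjusted p = 1.31e-06) at day 5 and 3.48 (adjusted p = 4.66e-07) at day 11, and Pilrb2 by 2.15 (adjusted p = 8.72e-05) and 2.19 (adjusted p = 6.87e-05). Neither Pilra group overlapped the untreated arrays. On the array scale, levels of these 3 genes cannot be set against each other, and the difference between their changes was not tested.

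In dermal cells Pilra rose in moDC at day 5 (8.77, 8.62 and 9.30, against 7.06, 7.11 and 7.95 untreated; change 1.52, adjusted p = 0.02). That call was lost without untreated moDC replicate 1 or 2 or without day 5 moDC replicate 3 (adjusted p of 0.0686 to 0.087). In CD11b DC at day 11 Pilra had 7.83, 8.52 and 6.58, against 6.85, 6.08 and 5.83 untreated. These groups overlapped. The change was 1.39 (SE 0.44, adjusted p = 0.0355), and the call was lost without day 11 replicate 1 or 2 or untreated replicate 2 or 3 (adjusted p of 0.0972 to 0.292). All 10 Pilra treatment changes were positive, between 0.49 and 2.16, and 4 were called. In MHCIIlow macrophages Pilra had 7.44, 7.14 and 8.15 at day 5, against 8.65, 6.29 and 6.31 untreated, and the change of 0.49 was not called. Untreated replicate 1 decided that: without it the change was 1.28 at day 5 (adjusted p = 0.0307) and 1.34 at day 11 (adjusted p = 0.0318), and Pilra in CD11b DC at day 5, a change of 1.13, was called too (adjusted p = 0.0427). Pilrb1 rose in these macrophages by 2.12 at day 5 (adjusted p = 0.00147).

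**Figure D4:**
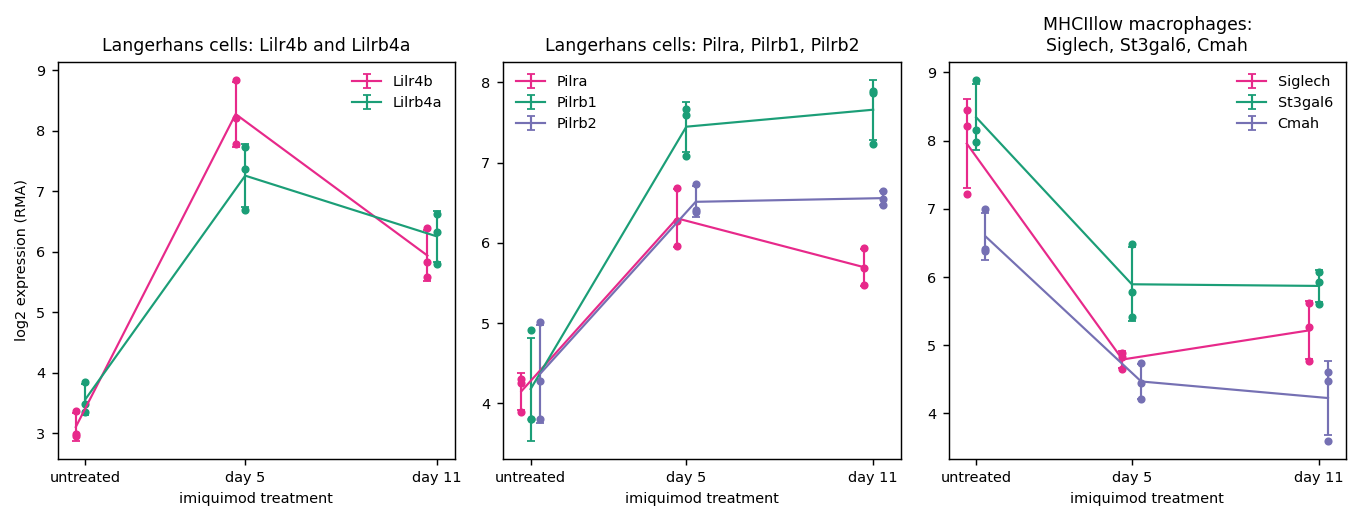
Log2 expression (RMA, vertical axis) in untreated, day 5 and day 11 samples (horizontal axis): Lilr4b with Lilrb4a and Pilra with Pilrb1 and Pilrb2 in Langerhans cells, and Siglech with the sialic acid genes St3gal6 and Cmah in MHCIIlow macrophages. Points are arrays, lines and bars the mean and SD; the 3 Pilra family genes are all above their untreated arrays on both days, Siglech falls to 4.79 at day 5 and 5.22 at day 11 against 7.96 untreated, and heights of different genes are not comparable.

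Cd72 rose in moDC, CD11b DC and MHCIIlow macrophages. In CD11b DC it measured 9.06, 9.32 and 9.15 at day 5 and 8.36, 7.70 and 8.50 at day 11, and 5.12, 3.56 and 5.00 untreated. Neither treated group overlapped the untreated one, with changes of 4.62 (SE 0.41, adjusted p = 4.77e-10) and 3.63 (SE 0.41, adjusted p = 1.5e-07). In moDC it measured 8.67, 8.72 and 8.68 at day 5 and 9.28, 8.13 and 8.18 at day 11, and 5.32, 5.71 and 4.26 untreated, with changes of 3.60 (adjusted p = 2.59e-07) and 3.43 (adjusted p = 1e-06). These 4 calls held when any 1 array was left out. On arrays of the same letter at day 5, Langerhans cells ranged over 9.46 to 9.70, still above CD11b DC at 9.06 to 9.32.

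Macrophages had more Cd72 than the dermal dendritic cells before treatment. MHCIIlow macrophages had 9.30, 9.14 and 9.35 at day 11, against 7.08, 6.99 and 6.77 untreated, a change of 2.32 (adjusted p = 1.53e-04). At day 5 they had 7.84, 7.45 and 9.48. That change was 1.31 (adjusted p = 0.0255) and rested on replicate 3: without it the change was 0.70 (adjusted p = 0.312), and the call was also lost without untreated replicate 2 or 3 (adjusted p of 0.0567 and 0.0857). MHCIIhi macrophages had 9.39, 8.98 and 8.94 at day 11, against 8.16, 8.03 and 7.71 untreated, with no overlap, but the change of 1.14 was not called (adjusted p = 0.0551). It was called when any of 6 single arrays of other groups was left out (adjusted p of 0.0277 to 0.0455): monocyte day 5 replicate 3, moDC untreated replicate 3, moDC day 11 replicate 1, MHCIIlow macrophage day 5 replicate 2 or 3, or CD11b DC untreated replicate 2. Monocytes had 5.76, 5.63 and 4.06 at day 5, against 4.64, 4.58 and 4.60 untreated (change 0.54), and Langerhans cells changed by -0.16 at day 5 and 0.38 at day 11. At day 5 the monocyte, moDC and CD11b DC arrays all go from title letter B to F. In each of them letter and treatment cannot be told apart, and the part of the letter in the Cd72 changes was not tested.

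Langerhans cell markers moved in the same CD11b DC arrays. Of 4 markers, 3 rose at day 5 and the same number at day 11, led by Mfge8 (3.26 at day 5) and Cdh1 (2.71 at day 5). Their mean level ranged over 8.21 to 8.32 at day 5 and 6.71 to 8.99 at day 11, and over 5.64 to 6.01 in untreated CD11b DC. Cd207, the defining marker, averaged 6.43 at day 5 and 6.33 at day 11, and 5.44 untreated, and was not called (adjusted p = 0.213 and 0.253). In moDC 1 of the 4 markers, Cdh1, rose at day 5 and none at day 11, with Cd207 at 4.30 at day 5 and 4.31 at day 11, and 3.72 untreated. Of 4 monocyte markers, 2 rose in CD11b DC at each day, with mean levels of 7.67 to 7.90 at day 5 and 7.18 to 7.53 at day 11, and 6.07 to 6.84 untreated. Keratinocyte markers fell in the same cells (6 of 10 at day 5), at 5.37 to 5.85 at day 5, against 6.86 to 7.28 untreated. The part of these markers in the Cd72 rise was not tested. Of 8 measured B cell markers, none was called in moDC, CD11b DC or MHCIIlow macrophages at either day, and 1, Cd79b, rose in MHCIIhi macrophages at day 11 (1.97, adjusted p = 0.0169). Cd79b was well above the filter threshold and averaged 8.29 at day 5 and 9.01 at day 11 in MHCIIlow macrophages, and 7.51 untreated, changes that were not called (adjusted p = 0.438 and 0.101). In moDC it averaged 7.77 at day 5 and 7.75 at day 11, and 7.57 untreated. Cd79a averaged no more than 3.56 in any of the 16 groups, under the threshold. The part of B cell RNA in the Cd72 changes was not tested. The Cd72 ligand gene Sema4d was not called in any treatment contrast.

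Siglech fell in both macrophage populations to levels nearer those of the other populations. MHCIIlow macrophages had 4.83, 4.66 and 4.88 at day 5 and 5.62, 5.26 and 4.77 at day 11, and 8.45, 7.21 and 8.21 untreated. The changes were -3.17 (SE 0.37, adjusted p = 1.54e-07) and -2.74 (SE 0.37, adjusted p = 2.49e-06). MHCIIhi macrophages had 5.24, 4.65 and 4.87 at day 11, against 8.16, 6.22 and 7.71 untreated (change -2.44, adjusted p = 1.27e-05). No treated array overlapped an untreated one in these cells. Elsewhere no Siglech change was called, though untreated CD11b DC replicate 2 stood at 6.06 beside 4.25 and 4.48.

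Genes of sialic acid synthesis and transfer, whose products make the ligands of Siglec receptors, were examined beside it. Of 20 measured, 4 fell in MHCIIlow macrophages at day 5 (14.2% of all genes called) and 3 at day 11 (9.72%), and none rose. In MHCIIhi macrophages at day 11, 3 fell and 1 rose. Falls were also counted where no Siglech change was called, with 3 at day 5 and 5 at day 11, beside 1 rise, in CD11b DC, and 2 at day 5 and 3 at day 11 in moDC. The median change over the list was -0.33 at day 5, where the median over all genes was -0.02. The largest falls were of St3gal6, a sialyltransferase (-2.45, adjusted p = 9.67e-08), and Cmah, the enzyme that converts the acetyl to the glycolyl form of sialic acid (-2.13, adjusted p = 9.54e-11). In MHCIIhi macrophages at day 11, St3gal6 changed by -2.57 (adjusted p = 2.85e-08). In these macrophages plasmacytoid dendritic cell markers gave 0 rises and 1 fall of 8 at day 5 in MHCIIlow cells, and no call at day 11 in either population by limma. Their mean level ranged over 5.11 to 5.16 at day 5 and 5.30 to 5.68 at day 11, and over 5.32 to 5.50 in untreated MHCIIlow macrophages. The median change over these markers in MHCIIlow macrophages was 0.11 at day 5 and 0.21 at day 11. Ly6d, on this list, averaged 6.19 at day 5 and 8.17 at day 11, and 8.47 untreated. It had its highest group mean, 11.77, in untreated Langerhans cells, where the keratinocyte markers were highest too.

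Siglece rose in monocytes at day 5, with 8.65, 7.68 and 7.81 in treated monocytes against 6.63, 6.84 and 6.09 in untreated ones. The change was 1.52 (SE 0.41, adjusted p = 0.0112), and it was lost without day 5 replicate 1 (adjusted p = 0.0763) or untreated replicate 3 (adjusted p = 0.054). In Langerhans cells the rise came at day 11 (8.45, 8.33 and 7.80, against 6.99, 6.37 and 7.54 untreated; change 1.23, adjusted p = 0.0308), and day 5 arrays measured 6.70, 7.30 and 6.93. The day 11 call was lost without untreated replicate 1 or 2 or day 11 replicate 1 or 2 (adjusted p of 0.0671 to 0.199). In CD11b DC at day 5, Siglece had 7.21, 7.58 and 7.40, against 8.31, 8.09 and 8.83 untreated. The groups did not overlap, but the change of -1.02 was not called. In moDC the changes of 1.03 at day 5 and 1.08 at day 11 were not called, but were without untreated moDC replicate 1 (adjusted p = 0.0289 and 0.0339) or day 11 moDC replicate 2 (adjusted p = 0.0488 and 0.00444).

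Siglec1 was called in opposite directions in 2 populations at day 5, and neither call held in every alternative. MHCIIlow macrophages had 8.82, 9.18 and 8.51 at day 5, against 8.02, 7.06 and 8.29 untreated, a rise of 1.05 (SE 0.29, adjusted p = 0.0122) that was lost without untreated replicate 2 (adjusted p = 0.157) or day 5 replicate 2 (adjusted p = 0.0843). Monocytes had 5.31, 5.46 and 5.02 at day 5, against 5.87, 6.11 and 6.54 untreated, a change of -0.91 (SE 0.29, adjusted p = 0.0344). That call was lost without any of 5 of the 6 monocyte arrays, all but untreated replicate 1 (adjusted p of 0.0529 to 0.14). It was lost too with quantile normalisation (limma, adjusted p = 0.0718), median-centred arrays (0.0672) and array weights (0.158). With only the groups compared, both the monocyte call (0.0945) and the macrophage call (0.0794) were lost. Of 10 interferon-stimulated genes, 5 rose in MHCIIlow macrophages and 3 in monocytes at day 5, and none fell in either. In Langerhans cells and CD11b DC, Siglec1 stayed between 3.85 and 4.40 on every array of every condition.

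Trem1 rose in moDC and Langerhans cells at day 5, and in moDC and CD11b DC it was lower at day 11 than at day 5. In moDC it had 9.10, 8.86 and 9.43 at day 5 and 5.95, 6.18 and 6.63 at day 11, and 7.82, 7.57 and 6.48 untreated. The day 5 rise was 1.84 (SE 0.50, adjusted p = 0.0135), lost without untreated replicate 3 (adjusted p = 0.103) or day 5 replicate 3 (adjusted p = 0.0529). The difference of day 11 from day 5 was -2.88 (SE 0.50, adjusted p = 0.00128), with no overlap, and Trem1 was the 1 member called there, where 1.01% of all genes were called. That fall was not called when the fit held only the groups compared (adjusted p = 0.0601). In CD11b DC it had 4.62, 5.48 and 6.42 at day 11, against 7.87, 8.10 and 7.22 at day 5.

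That difference in CD11b DC was -2.22 (SE 0.50, adjusted p = 0.0165), again the 1 member called, where 0.962% of all genes were called. It was lost without day 11 replicate 1 or 2 or day 5 replicate 1 or 2 (adjusted p of 0.0565 to 0.108). In Langerhans cells Trem1 had 5.72, 4.62 and 4.71 at day 5, against 3.12, 3.77 and 3.43 untreated (change 1.58, adjusted p = 0.0232), and 3.24, 3.17 and 4.20 at day 11. The day 5 call was lost without day 5 replicate 1 or untreated replicate 1 or 3 (adjusted p of 0.0578 to 0.169). Between day 11 and day 5, Langerhans cells had 1 member called, Lilr4b, where 2.12% of all genes were called. MHCIIlow macrophages had none by limma, where 0.481% of all genes were called, and 2 of the 8 (Cd72 and Siglec1) had an unadjusted p under 0.05.

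Trem1 is also a neutrophil gene, and neutrophil markers were examined in these cells. Of 8 measured, Mmp8 (1.76) and Csf3r (0.95) rose in moDC at day 5, and Mmp8 fell by 2.04 at day 11 against day 5. Both had their highest group means in day 5 monocytes, at 9.43 and 8.37. In moDC Camp averaged 4.11 at day 5 and 4.15 untreated, Elane 3.86 and 4.00, Mpo 3.65 and 3.70, and Ngp 3.84 and 3.75. Cxcr2 averaged 3.46 and 2.91, and Retnlg 4.29 and 4.06. The mean level of the 8 markers ranged over 4.91 to 5.02 at day 5 and 4.57 to 4.78 at day 11, and over 4.52 to 4.57 in untreated moDC. In Langerhans cells 2 of the 8 rose at day 5 and 1 at day 11, with mean levels of 3.86 to 4.10 at day 5 and 3.82 to 3.95 at day 11, and 3.70 to 3.79 untreated. In CD11b DC 2 rose at day 5 and 1 at day 11, with mean levels of 4.30 to 4.47 at day 5 and 4.08 to 4.38 at day 11, and 3.83 to 3.90 untreated. Of 4 monocyte markers, 1 rose in moDC at day 5, and in CD11b DC 2 rose at day 5. Their part in the Trem1 changes was not tested. The Trem1 ligand gene Pglyrp1 rose in moDC at day 5 by 2.46 (adjusted p = 0.00223), where it had 7.28, 8.46 and 6.95 at day 5, against 4.46, 4.95 and 5.90 untreated. The related Trem3 rose by 1.38 in the same cells (adjusted p = 0.00407).

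Trem2 gave no call in any of the 10 treatment contrasts (lowest adjusted p = 0.0935, limma). Its changes ran between -0.94 and 0.64. The largest was in MHCIIlow macrophages at day 5, with 8.74, 8.54 and 8.52, against 9.64, 9.65 and 9.33 untreated. These arrays did not overlap, and the 95% interval of the change ran between -1.70 and -0.18. Without untreated moDC replicate 3, an array of another group that enters the shared spread, this change was called (adjusted p = 0.0432). In Langerhans cells the day 11 change was 0.03 with an interval between -0.74 and 0.79. A call that was not reached does not show that Trem2 stayed the same.

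The responses differed between populations for several members. An F-test that the day 5 change was the same in 5 populations was called for 5 of 8 members (12.9% of all genes called), namely Lilr4b (adjusted p = 2.74e-15), Cd72 (adjusted p = 8.6e-08), Siglech (adjusted p = 2.4e-05), Siglec1 (adjusted p = 0.0122) and Siglece (adjusted p = 0.0126). At day 11 it was called for 3 of 8 (10.7% of all genes), namely Lilr4b (adjusted p = 1.23e-10), Siglech (adjusted p = 3e-05) and Cd72 (adjusted p = 1.33e-04). For Trem1, Trem2 and Pilra neither test was called. Dermal arrays go from title letter B to F at day 5 and to G at day 11. Langerhans cell arrays keep F at day 5 and go from F to G at day 11. Where Langerhans cells enter a test of the difference, population and letter therefore cannot be told apart. The change in Langerhans cells minus the mean change of 4 dermal populations was 5.61 for Lilr4b and -2.67 for Cd72 at day 5, the 2 members called (13.5% of all genes). At day 11 it was 3.64 for Lilr4b, 1.86 for Siglech and -2.25 for Cd72, the 3 members called (12.4% of all genes). The populations differ between the days, with monocytes at day 5 and MHCIIhi macrophages in their place at day 11. The values and counts of the 2 days therefore do not cover the same cells. The Siglech change in Langerhans cells was itself not called.

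Of 20 measured genes listed as other inhibitory receptors, 10 rose and none fell in Langerhans cells at day 5 (16.1% of all genes called). At day 11, 8 rose and none fell (17.7%). Their median change was 0.68 at day 5 and 0.48 at day 11, where the median over all genes was 0.02 and 0.03. They were led by Lilrb4a and by Cd33, a sialic acid receptor, which measured 6.78, 7.37 and 5.91 at day 5 and 7.57, 7.53 and 7.05 at day 11, and 4.61, 4.38 and 4.26 untreated. The list was set by gene name, and whether each product, Cd33 included, inhibits in these cells was not tested. In the other populations 1 to 4 of the 20 rose and up to 4 fell. In monocytes and moDC the largest rise was of Cd300lf, an ITIM-bearing lipid receptor (2.81 and 2.94 at day 5).

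Some other activating receptors were called as rises in each of the 5 populations at day 5. In monocytes 15 of the 18 measured, and in CD11b DC 16, were not called, so the share called there was near that over all genes. Of 18 measured, 8 rose in moDC (11.3% of all genes called in either direction), 7 in Langerhans cells (16.1%), 6 in MHCIIlow macrophages, with 2 falls (14.2%), 3 in monocytes (12.7%) and 2 in CD11b DC (7.98%). The lists were not tested against each other. Their median change at day 5 lay between 0.10 in MHCIIlow macrophages and 0.51 in moDC. In Langerhans cells the largest rises at day 5 were of Klrk1, the NKG2D receptor (3.28, adjusted p = 3.75e-08), and Pilrb1. In moDC and MHCIIlow macrophages Cd300e, a DAP12-coupled receptor of monocytes, rose by 2.66 (adjusted p = 8.71e-05) and 1.99 (adjusted p = 0.00126). The adaptor gene Tyrobp was high in all groups, between 11.88 and 12.46 on the arrays, and changed by no more than 0.25 under treatment. Ptpn6, which encodes SHP-1, rose in 8 of the 10 treatment contrasts. Its changes were 0.96 in Langerhans cells, 0.76 in MHCIIlow macrophages, 0.72 in moDC and 0.69 in CD11b DC at day 5, and 1.38 in Langerhans cells, 1.27 in MHCIIhi macrophages, 0.94 in MHCIIlow macrophages and 0.67 in moDC at day 11. The other 2 were 0.44 in monocytes at day 5 (adjusted p = 0.0891) and 0.47 in CD11b DC at day 11 (adjusted p = 0.0756).

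Among 16 measured adaptors and kinases that act below these receptors, 5 rose in Langerhans cells at day 5 and 6 rose and 1 fell at day 11, with median changes of 0.47 and 0.21. The Src-family kinase Fgr led the rises at both days (1.57 and 1.54). In CD11b DC 3 fell at day 5 and 4 at day 11 and none rose, with Blnk, an adaptor best known in B cells, at -2.39 and -1.57. Of 11 phosphatases and negative adaptors, 3 rose in Langerhans cells at each day. Of 10 ligand genes, Fn1 rose in Langerhans cells at day 5 (3.42), and Apoe and Clu, lipoprotein components bound by Trem2, changed by -1.43 and -1.71.

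The genes whose 16 group means followed each member most closely, by Pearson's r among 3276 genes with an SD of group means of at least 0.5, are given as a description of groups that share cell types and arrays. For Lilr4b they were Lilrb4a (0.988), Lyz2 (0.980) and Ccl9 (0.979). For Siglech they were Hrh1 (0.953), St3gal6 (0.949) and Rasgrp3 (0.947), and for Siglec1 they were Slc38a6 (0.969), Itga9 (0.967) and Selenbp1 (0.965). Trem2 was followed by Zcchc24 (0.973), Cndp2 (0.971) and Dse (0.970), and Trem1 by Pi16 (0.964), Sorl1 (0.944) and F10 (0.941). Pilra was followed by Zbp1 (0.950), Slfn5 (0.949) and Osm (0.934). Cd72 and Siglece had less close matches, led by Mif (0.910) and Blvra (0.903). Among the members themselves, Trem2 and Siglec1 were the most alike (0.867) and Trem1 and Cd72 the most opposed (-0.613).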

How the data were processed

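The authors deposited log2 expression values, which the submitters' processing notes credit to RMA and the oligo and limma packages (versions not given in the sources used here), for RNA amplified in 2 rounds, per the labels. RMA corrects background, quantile-normalises the arrays together and summarises each probe set, so differences of low genes are compressed. The values were used without further normalisation, and the number of arrays limits their precision. Of 35556 probe sets, 21789 carried 1 gene symbol, 1621 several and 12146 none. Probe sets above the 40th percentile (3.77) on at least 3 arrays were kept, and the one with the highest mean stood for each gene, leaving 15591 genes.

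limma 3.58.1 (lmFit and eBayes, R 4.3.3) was fitted with a mean for each of 16 groups, and 22 contrasts and 2 F-tests were adjusted by Benjamini-Hochberg over all genes, two-sided, with calls at an adjusted p under 0.05. Intervals are 95%. The script was tested on simulated data. Members and gene lists were chosen with earlier results of these data known, so no list gives independent support. All members are named, with at most 2 rises and 2 falls per list and contrast, the 3 genes most like each member, and relatives, ligands, adaptors and defining markers that a result turns on, chosen after their values were seen. Sample titles carry numbers that could pair samples. Same-numbered arrays of 1 title letter deviated together with a median r of 0.0419 to 0.0431, and different-numbered ones with -0.0238 to -0.02. Same-numbered arrays were thus slightly more alike within each letter. Their r was not above 0.1 in every pair, so the numbers were not taken as pairs in the main fit. A weak pairing is not excluded by that rule. Alternatives were other scalings, filters, probe set rules, array weights, smaller fits, blocks and left-out arrays. Promoters are RefSeq's (GRCm38.p6), found for 7 of 8 members and aligned with Biopython 1.88.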

Additional observations from a re-analysis of the deposited data

Results flagged for a closer look

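These members changed differently between populations by a test of the difference itself. Untreated dermal arrays carry the title letter B and untreated Langerhans cell arrays F. Where Langerhans cells enter, a difference of response therefore cannot be told apart from a difference of letter. At day 5 the F-test over 5 populations gave adjusted p-values of 2.74e-15 for Lilr4b, 8.6e-08 for Cd72, 2.4e-05 for Siglech, 0.0122 for Siglec1 and 0.0126 for Siglece (limma). At day 11 it gave 1.23e-10 for Lilr4b, 3e-05 for Siglech and 1.33e-04 for Cd72. Lilr4b rose in Langerhans cells and fell in macrophages, and its Langerhans cell change exceeded the mean dermal change by 5.61 at day 5 and 3.64 at day 11 on the log2 scale. Cd72 rose in dermal dendritic cells and MHCIIlow macrophages and was already high in Langerhans cells, where the difference was -2.67 at day 5 and -2.25 at day 11. Siglech fell in macrophages, and its Langerhans cell change, itself not called, was above the mean dermal change by 1.86 at day 11. That dermal mean takes in MHCIIhi macrophages, where the day 5 mean takes in monocytes.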

How the results depend on the processing

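Of 53 called member values from the contrasts, 38 kept their call in all 60 alternatives, 15 lost it in at least 1, and none reversed. The called F-tests are not among the 53. Member calls numbered 13 at day 5, 11 at day 11, 3 between the days, 21 between untreated populations and 13 for differences of response. Only the last of these counts includes F-test calls, which were followed as a count and not singly. The count between the days moved to 5 with array weights and to 1 with only the groups compared, and the cause was not tested. With 1 array left out the counts ranged over 11 to 15 at day 5, 10 to 12 at day 11, 2 to 3 between the days, 20 to 22 between untreated populations and 13 to 14 for differences of response. Leaving out untreated monocyte replicates 2 and 3 gave 11 at day 5, and leaving out untreated monocyte replicate 2 with day 11 CD11b DC replicate 2, chosen after seeing the data, gave 12. A group left with 1 array is assumed to vary like the others. With the title number as a fixed replicate block the counts were 13, 12, 3, 21 and 14, and as a random replicate block 13, 11, 3, 21 and 13, so neither block ended a call. The calls that did not hold in every alternative are Siglec1 in monocytes and MHCIIlow macrophages at day 5 and in CD11b DC against moDC, Pilra in moDC and CD11b DC, Trem1 in moDC and Langerhans cells at day 5, between the days and in moDC against monocytes, Siglece in monocytes, in Langerhans cells at day 11 and in Langerhans cells against CD11b DC, Cd72 in MHCIIlow macrophages at day 5 and Trem2 in MHCIIlow macrophages against monocytes. With only the groups compared, 9 of these 15 lost their call. Signals near the filter threshold limit the size of any change measured there, such as that of Lilr4b and Trem1 in Langerhans cells. With 1 array left out, some values that were not called became calls in the same direction: Pilra in MHCIIlow macrophages on both days and against monocytes and in CD11b DC at day 5, Siglece in moDC on both days and in CD11b DC against moDC, Cd72 in MHCIIhi macrophages, Trem1 in CD11b DC at day 11, Siglech in Langerhans cells against CD11b DC, and Trem2 in MHCIIlow macrophages at day 5 and in the Langerhans minus dermal change at day 5.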
